A study of Mus musculus with 9 samples.

Results

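Livers of STAM mice given Atglistatin were compared with livers of control mice on chow, to describe what stayed altered while a lipase was inhibited and what was altered newly. The comparison uses 6 of the 9 libraries of the series: STAM + Atglistatin replicates 4 to 6 and chow replicates 7 to 9, assigned by sample title. The 3 STAM libraries (replicates 1 to 3) serve as the reference without the inhibitor. STAM mice are a model of insulin-deficient diabetes with fatty liver: 200 µg of streptozotocin (STZ), a toxin of pancreatic beta cells, was given under the skin of males at 2 days of age, and a high-fat diet followed from 4 weeks of age for 4 weeks. The treated mice had Atglistatin, a small-molecule inhibitor of adipose triglyceride lipase (ATGL, the product of Pnpla2), mixed into that diet, at a dose that is not given in the sources used here. Chow mice received neither STZ, high-fat diet nor inhibitor. The strain is not given. The comparison therefore spans the toxin, the diet and the inhibitor at once, and these 3 cannot be told apart against chow. GEO treatment entries for chow and STAM samples go against the titles, so they were left aside.

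ATGL takes the first step of triglyceride breakdown, in fat depots and in liver, and frees fatty acids that are burned, stored again or used as ligands. In hepatocytes such fatty acids activate PPARa, a nuclear receptor that switches on genes of fatty acid oxidation, while SREBP factors control genes that make cholesterol and fatty acids and fall silent when sterols are plentiful. Another large part of the liver program differs between the sexes and follows the pattern of growth hormone release, which includes the major urinary proteins, many cytochrome P450 enzymes and sulfotransferases.

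QuantSeq 3' sequencing of RNA from the left lobe gave 7409090 to 9911855 counts per library, rRNA rows included, and 12660 genes passed the filter on low counts. Chow replicate 7 stood apart. On the first principal component (25.01% of variance) it lay at -10.4, against -53.5 and -51.4 for chow replicates 8 and 9 and 17.4 to 25.3 for the treated libraries. Levels are in CPM, the usual unit of counts scaled to a common library total. The summed level of proliferation markers in this library was 540 CPM, against 273 and 283 in the other chow libraries and 385 to 529 in the treated ones, and its sum of recruited macrophage markers was 225 against 98.0 and 130 in chow and 133 to 179 in treated livers. Results are therefore also given without it where they move. The Y-linked gene Ddx3y was present in all 9 libraries, while the female transcript Xist had 0 counts in chow and STAM and 7 over the treated libraries, so every library was male by these genes. The sum of general hepatocyte markers was 147074 to 166082 CPM in chow and 116917 to 126628 in treated livers, and mitochondrially encoded transcripts took 7.32 to 8.78% and 8.64 to 9.73% of counts.

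**Figure D1:**
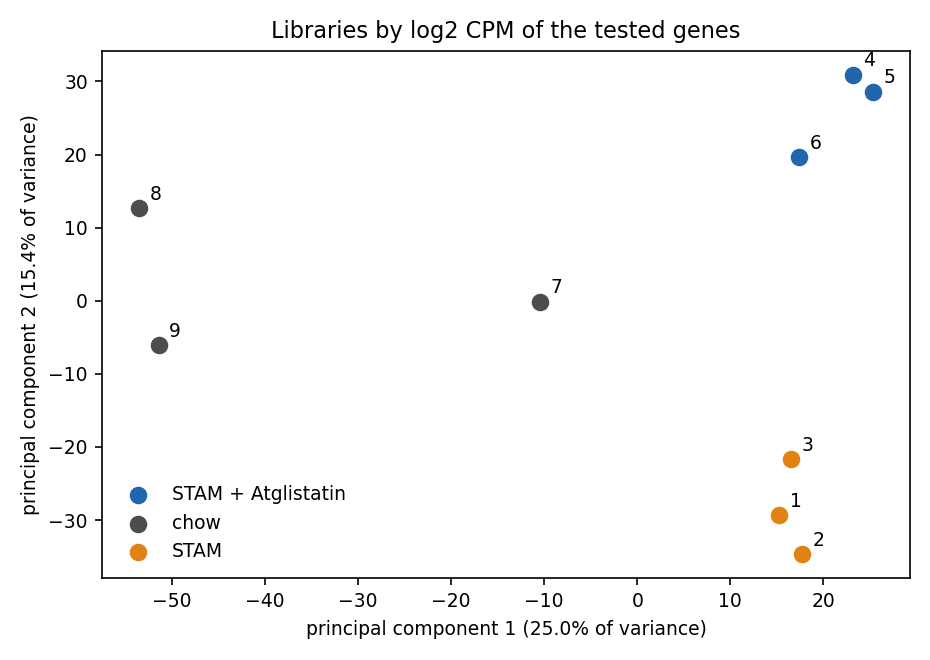
The 9 libraries on the first 2 principal components of log2 CPM over the tested genes, coloured by group and numbered by replicate. Treated (4 to 6) and STAM libraries (1 to 3) share the right side and part on the second component, and chow replicate 7 lies between chow replicates 8 and 9 and the rest.

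Of the 12660 genes, 516 differed between STAM + Atglistatin and chow (4.08%; edgeR quasi-likelihood test, Benjamini-Hochberg adjusted p under 0.05), 266 higher (2.1%) and 250 lower (1.97%). With library totals in place of TMM scaling the split was 359 higher and 184 lower, which takes the share of higher calls from 51.6 to 66.1%. Values did not overlap between the groups for 509 of the 516 (18.6% of all tested genes did not overlap), and 256 of the 516 changed by a log2 fold change of at least 1. The median log2 fold change over all tested genes was -0.0041. Without chow replicate 7 the calls were 376 higher and 381 lower, and without chow replicate 8 or 9 they were 179 and 143 or 169 and 147. Leaving out treated replicate 4 gave 164 and 148, and leaving out treated replicate 5 gave 177 and 132. P-values here measure the spread between these samples, since the labels do not say more of how they were taken. In bulk tissue, fewer cells of a type and less RNA per cell cannot be told apart.

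Genes that stayed altered are those called against chow in the same direction both in STAM mice and under Atglistatin. There were 236 (1.86% of tested genes), 126 higher and 110 lower, which is 45.7% of the 516 genes called under Atglistatin and 47.3% of the 499 called in STAM (3.94%). Of the 236, 192 were not called between treated and untreated STAM livers, 24 had moved back in part (22 low genes, and Krt23 and Cidea, which were high) and 20 had moved further from chow (13 of them low genes). Newly altered genes are those called against chow and against STAM in the same direction (226 genes, or 1.79%, were called between treated and untreated STAM livers) and not called in STAM. They numbered 74 (0.585% of tested genes), 31 higher and 43 lower. Another 204 were called against chow under Atglistatin but neither in STAM nor between the STAM groups, so for those a difference from STAM was not shown. Only 2 genes lay on opposite sides of chow in the 2 STAM groups, Cyp1a2 and Mup9. The contrasts share the chow or the treated libraries, so these counts are descriptions. The number that stayed altered was 408 without chow replicate 7, 147 without chow replicate 8, 151 without chow replicate 9 and 148 without STAM replicate 1. The number newly altered was 40 and 33 without treated replicates 4 and 5, and 44 and 38 without STAM replicates 1 and 2.

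**Figure D2:**
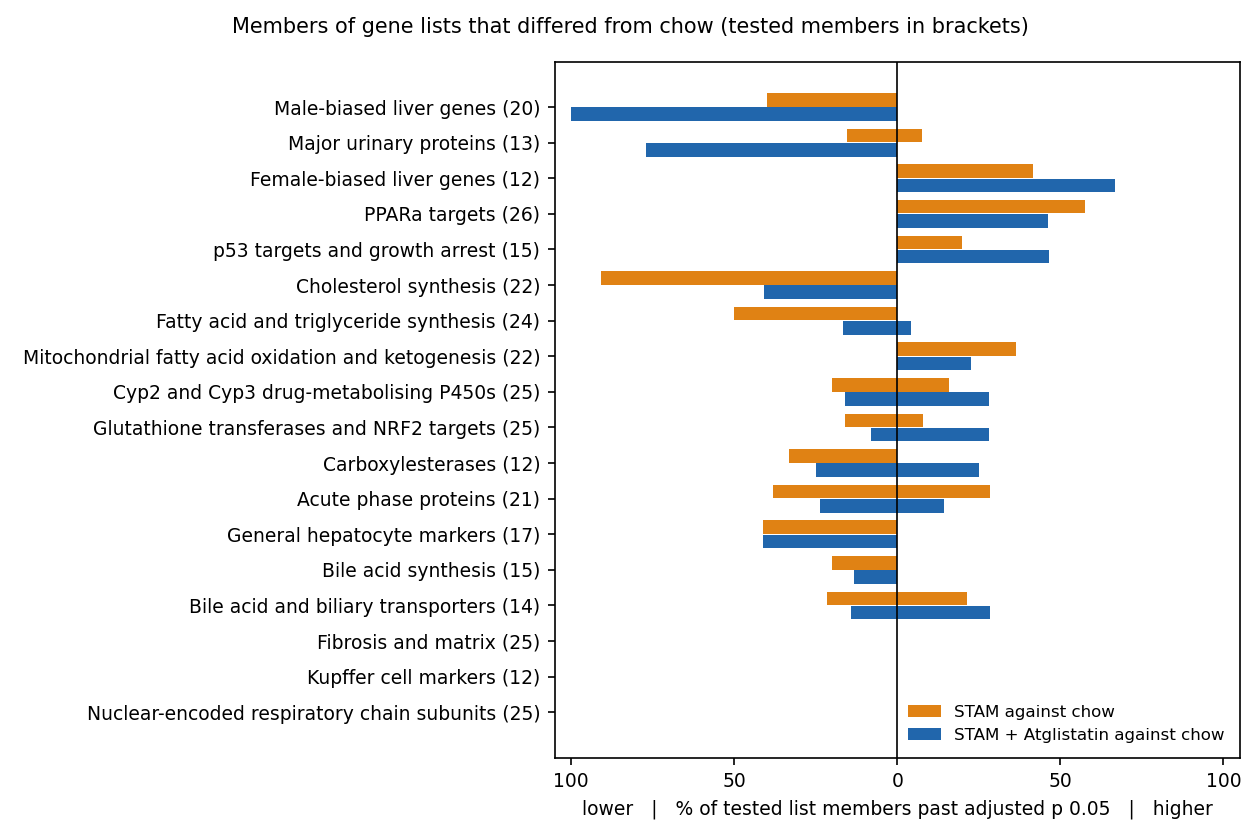
Share of the tested members of 18 gene lists called higher (to the right) or lower (to the left) than chow, in STAM (orange) and STAM + Atglistatin (blue). Male-biased genes and major urinary proteins extend furthest to the left under Atglistatin (20 of 20 and 10 of 13), while cholesterol synthesis genes do so in STAM (20 of 22).

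The first block that stayed altered was fatty acid use. Of 26 tested PPARa targets, 12 were higher than chow under Atglistatin and 0 lower (median log2 fold change 0.53), and in STAM 15 were higher (1.95% of all tested genes were) and 0 lower. Without chow replicate 7 the count under Atglistatin was 15 higher and 1 lower (median 1.02). With DESeq2, library totals or no low-count filter it was 15 higher and 0 lower. Acot3 alone differed between the STAM groups. Cyp4a14, a fatty acid omega-hydroxylase and a classic PPARa target (chromosome 4, 115486200 to 115496142, minus strand of GRCm38), had 166, 154 and 40.9 CPM in chow replicates 7, 8 and 9, 1156, 666 and 1141 in STAM replicates 1 to 3 and 1535, 1511 and 1312 in treated replicates 4 to 6. Both STAM groups stood far above chow, and the treated livers highest. The log2 fold change from chow was 3.59 ± 0.35 (SE; edgeR adjusted p = 4.34e-06), and from STAM 0.56 ± 0.32 (adjusted p = 0.614). Its relative Cyp4a10 had 246, 309 and 172 CPM in chow, 1084, 836 and 1428 in STAM and 1278, 979.6 and 822 under Atglistatin, a log2 fold change of 2.08 ± 0.22 from chow.

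Vnn1, which makes pantothenic acid and cysteamine from pantetheine, had 32.4, 37.4 and 45.8 CPM in chow against 111, 121 and 112 in treated and 131, 128 and 121 in STAM livers. Aldh3a2, which oxidises fatty aldehydes, had 186, 228 and 191 in chow, 601, 516 and 581 in STAM and 529, 558 and 634 CPM under Atglistatin. Chow lay below both STAM groups in these genes, the treated range of Vnn1 ended just under that of STAM, and the ranges of Aldh3a2 overlapped. Log2 fold changes from chow under Atglistatin were 1.58 ± 0.14 for Vnn1 and 1.51 ± 0.13 for Aldh3a2 (edgeR adjusted p = 1.25e-06 and 6.37e-07), beside 1.73 ± 0.14 and 1.49 ± 0.13 in STAM. The peroxisome proliferation factor Pex11a and the peroxisomal thiolase Acaa1b rose by 1.13 ± 0.15 and 1.03 ± 0.14, and the acyl-CoA thioesterases Acot1 and Acot4 by 1.69 ± 0.17 and 2.13 ± 0.21. Another thioesterase, Acot3, had 5.04, 10.003 and 5.17 CPM in chow, 17.0, 18.9 and 41.6 in STAM and 81.0, 94.0 and 73.9 under Atglistatin, and moved further from chow (log2 fold change 1.69 ± 0.28 against STAM, adjusted p = 0.00206). The Acot genes and the Cyp4a genes are families of close copies, and the sources used here do not say how multi-mapped reads were handled. Transcripts of Ppara itself were at 104.7, 180.4 and 195 CPM in chow and 167, 183 and 162 in treated livers, with chow replicate 7 lowest (log2 fold change 0.10 ± 0.17, adjusted p = 0.875, and -0.14 without that library).

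Cd36, the fatty acid translocase of the cell surface (chromosome 5, 17781690 to 17888801, minus strand), had 26.6, 17.5 and 14.6 CPM in chow, 103, 92.3 and 87.5 in STAM and 93.4, 84.5 and 113 under Atglistatin. The STAM values lay within the treated range, and both groups lay above chow by log2 fold changes of 2.30 ± 0.19 and 2.26 ± 0.19 (edgeR adjusted p = 6.50e-07 and 8.23e-07). Among 22 mitochondrial oxidation and ketogenesis genes, 5 were higher and 0 lower (median 0.34; 8 higher in STAM): Cpt1a, the carnitine palmitoyltransferase of the outer membrane (0.60 ± 0.12), the beta-oxidation enzymes Hadh (0.70 ± 0.12), Decr1 (0.67 ± 0.12) and Acadl (0.40 ± 0.11), and the ketone body enzyme Bdh1 (0.70 ± 0.13). Acadl was the weakest of them (adjusted p = 0.0455) and lost its call in each run that left out a treated library (adjusted p = 0.0874, 0.141 and 0.11 without replicates 4, 5 and 6), a chow library (0.0545, 0.141 and 0.145 without replicates 7, 8 and 9) or STAM replicate 1 (0.0796), 2 (0.0748) or 3 (0.0552). Its call was also lost with no low-count filter (0.0765) or the compared groups alone (0.0932). Of these 5 genes, 4 were called in STAM as well, all but Acadl. The STAM call of Bdh1 was lost without STAM replicate 1 or 2 (adjusted p = 0.076 and 0.056). The number of this list called under Atglistatin was 9 with DESeq2 and 13 with library totals. Fatty acid binding proteins split: intestinal-type Fabp2 stayed higher (124, 139 and 139 CPM in chow, 214, 201 and 213 treated, log2 fold change 0.65 ± 0.11), and epidermal-type Fabp5 stayed lower (38.3, 81.2 and 156 and 4.62, 15.3 and 8.76 CPM, -3.26 ± 0.43). Chow values of Fabp5 were widely spread, yet each was above every treated value.

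**Figure D3:**
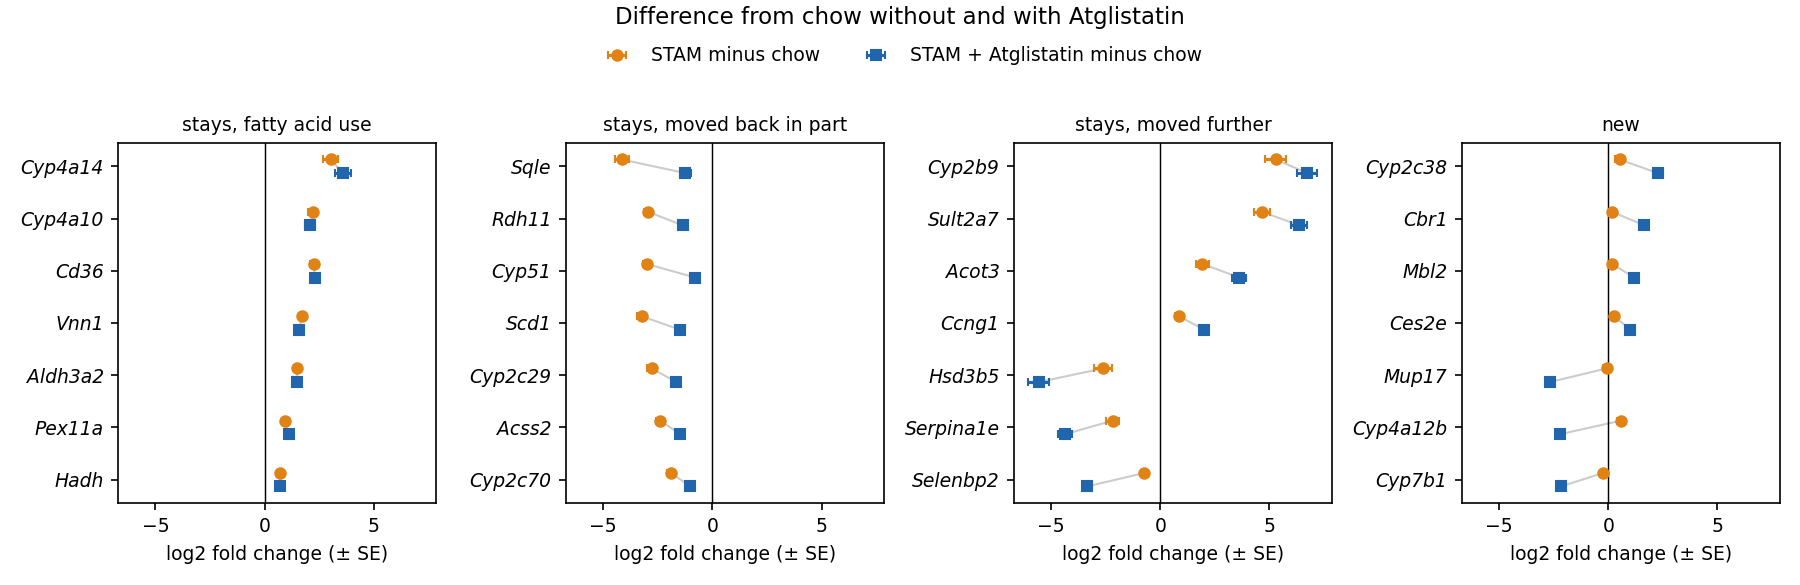
Log2 fold changes from chow (± SE, n = 3 libraries a group) in STAM (orange circles) and STAM + Atglistatin (blue squares) for 28 genes in 4 sets. Among the fatty acid genes, markers nearly coincide for Cd36, Vnn1 and Aldh3a2, while the blue square of Cyp4a14 lies further out than its circle. The blue squares lie closer to 0 for Sqle, Cyp51 and Scd1, further out for Hsd3b5 and Cyp2b9, and away from an orange circle near 0 for Cyp7b1 and Mup17.

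The second block stayed low but had moved back in part. Of 22 cholesterol synthesis genes, 9 were lower than chow under Atglistatin and 0 higher (median log2 fold change -0.55), against 20 lower in STAM (median -1.98; 1.99% of all tested genes were lower there), and 18 were higher under Atglistatin than in STAM (1.04% of all tested genes). The 9 fell to 4 without treated replicate 4, 3 without treated replicate 5 and 5 without chow replicate 8. The list was drawn up with earlier results of these data known, so its direction is not independent evidence. Sterol genes are read by SREBP together with the CCAAT-binding factor NF-Y, and the 250 bases before the start sites of 3 members called in every alternative are shown for this reason, 5′ to 3′ on the coding strand, with the CCAAT box (or ATTGG, its form on the other strand) in capitals (RefSeq, GRCm38.p6):
Cyp51, chr5:4104698-4104947, minus strand: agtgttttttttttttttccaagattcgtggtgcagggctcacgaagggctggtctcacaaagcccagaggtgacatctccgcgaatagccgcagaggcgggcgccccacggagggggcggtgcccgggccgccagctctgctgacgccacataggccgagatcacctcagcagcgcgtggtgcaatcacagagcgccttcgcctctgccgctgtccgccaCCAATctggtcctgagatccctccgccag
Nsdhl, chrX:72918271-72918520, plus strand: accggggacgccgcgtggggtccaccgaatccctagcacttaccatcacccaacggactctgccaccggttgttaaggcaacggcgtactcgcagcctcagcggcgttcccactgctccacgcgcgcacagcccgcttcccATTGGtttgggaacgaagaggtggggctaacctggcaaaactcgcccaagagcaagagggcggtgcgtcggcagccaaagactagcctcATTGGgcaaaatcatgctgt
Dhcr7, chr7:143829964-143830213, plus strand: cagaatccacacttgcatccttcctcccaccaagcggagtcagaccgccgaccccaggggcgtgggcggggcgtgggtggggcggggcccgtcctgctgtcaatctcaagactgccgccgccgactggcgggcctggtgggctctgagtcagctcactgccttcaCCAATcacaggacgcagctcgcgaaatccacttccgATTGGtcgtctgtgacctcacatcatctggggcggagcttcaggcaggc
The letters CCAAT, on either strand, were in 15 of the 17 cholesterol genes with a RefSeq window (88.2%), in 40.6% of the 9698 tested genes with one and in 33.8% of all 32851 windows. They were also in 10 of 13 p53 targets (76.9%) and 12 of 19 PPARa targets (63.2%), so the box is not particular to sterol genes. A SREBP core spelled TCACNCCAC was in 1 of the 17, Hmgcs1, and in 1.30% of tested genes. Dhcr7 has 3 listed starts, of which 1 holds the box. These matches describe the letters in the windows and nothing about binding.

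Cyp51, lanosterol demethylase, had 222, 203 and 238 CPM in chow, 25.5, 23.4 and 32.7 in STAM and 113, 125 and 148 under Atglistatin. The treated livers lay between the other groups with no overlap on either side: -0.78 ± 0.14 from chow (edgeR adjusted p = 0.00317) and 2.24 ± 0.15 from STAM (adjusted p = 1.16e-07). The same order held for Nsdhl, which removes methyl groups from sterols (107, 114 and 150.3 in chow, 15.3, 19.5 and 20.9 in STAM, 58.8, 56.7 and 75.7 CPM treated, -0.96 ± 0.17 from chow), and for Dhcr7, the last enzyme of the pathway (62.7, 63.8 and 65.2, 11.5, 15.6 and 18.9 and 30.9, 29.5 and 40.8 CPM, -0.92 ± 0.18 from chow). Squalene epoxidase, Sqle, had 66.1, 86.8 and 72.0 CPM in chow and 29.6, 23.4 and 41.5 under Atglistatin (log2 fold change -1.25 ± 0.25, adjusted p = 0.00684, and 0.0629 without treated replicate 5). Treated replicate 6 held the highest treated value for each of these 4 genes. The cleavage-activating protein of SREBP, Scap, stayed low without moving back (135, 158 and 165 CPM in chow, 87.8, 77.7 and 101 in STAM, 91.8, 91.3 and 94.3 treated, -0.72 ± 0.13 from chow). Akap9 runs over Cyp51 on the opposite strand, Pitx3 over Elovl3, Zfp697 over Hsd3b5 and 4732463B04Rik over Acot3 and Acot4, and whether the counting used strand is not given, so such reads cannot be told apart.

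Fatty acid synthesis showed all 3 outcomes. Of 24 genes, 4 were lower and 1 higher than chow (median -0.042), against 12 lower in STAM, and 11 were higher under Atglistatin than in STAM. Scd1, the delta-9 desaturase (chromosome 19, 44394455 to 44407879, minus strand), had 4539.6, 6719 and 7336 CPM in chow, 482, 798 and 675 in STAM and 1851, 2855 and 2018 in treated livers, so that it stayed low by -1.47 ± 0.20 (edgeR adjusted p = 1.77e-04) after -3.25 ± 0.21 in STAM. Acss2, which makes acetyl-CoA from acetate, stayed low as well (149, 231 and 264 CPM in chow, 36.7, 42.2 and 43.4 in STAM, 74.0, 74.4 and 83.6 treated, -1.47 ± 0.17), and its difference from STAM lost the call without STAM replicate 1 (adjusted p = 0.0678). Fatty acid synthase, Fasn, overlapped chow again: 599, 1005 and 929.5 CPM in chow, 176, 188 and 279 in STAM and 987, 1172 and 778 under Atglistatin (0.21 ± 0.20 from chow, adjusted p = 0.698). Elovl6, an elongase of long-chain fatty acids, went beyond chow, with 137, 244 and 263 CPM in chow, 172, 180.2 and 183 in STAM and 378, 485 and 469.8 in treated livers (1.05 ± 0.18, adjusted p = 0.00199). Without chow replicate 7 the Elovl6 excess was 0.81 and STAM was called lower than chow (adjusted p = 0.0177). The elongase Elovl3 is male-biased and is given with that group. Acacb, the mitochondrial acetyl-CoA carboxylase, was lower by -0.72 ± 0.19. That edgeR call was lost without treated replicate 4, 5 or 6 (adjusted p = 0.174, 0.0942 and 0.0849), chow replicate 8 (0.111) or 9 (0.243) or STAM replicate 1 (0.0593). It was also lost with library totals (0.0582) or the compared groups alone (0.0546).

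A like order of groups was seen in other metabolic enzymes. Rdh11, a retinal reductase, had 88.1, 104 and 106 CPM in chow, 15.04, 10.6 and 12.6 in STAM and 33.6, 39.4 and 42.6 treated (-1.37 ± 0.16, edgeR adjusted p = 2.73e-05). Cyp2c29, an epoxygenase of xenobiotics and fatty acids, had 1219.7, 1961 and 1926, 198, 213 and 335 and 552, 461 and 602 CPM in the same order of groups (-1.66 ± 0.20). Each had treated values between the other groups without overlap. Slco2a1, a prostaglandin carrier, stayed low with 76.6, 91.2 and 106 CPM in chow against 37.4, 34.9 and 36.3 treated (-1.33 ± 0.15), and its difference from STAM, 0.49 ± 0.16, was not called (adjusted p = 0.174).

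Fibrinogen genes and Apoa1 stayed low as well. The 3 fibrinogen chains fell together: Fga from 2336, 2711 and 2758 CPM in chow to 1479.9, 1262 and 1733, Fgb from 5162, 4985 and 5658 to 3042, 3339 and 3215, and Fgg from 2583, 2991 and 3169 to 1589, 1413 and 2082. Log2 fold changes were -0.80 ± 0.13, -0.72 ± 0.11 and -0.78 ± 0.14 (edgeR adjusted p = 0.00108, 5.00e-04 and 0.00283), beside -0.86, -0.68 and -0.71 in STAM, with no overlap between chow and treated livers. Apoa1, the main protein of HDL, had 11196, 11861 and 12856 CPM in chow and 7223, 7381 and 6599 under Atglistatin (-0.76 ± 0.11). Within the acute phase list of 21 genes, 5 were lower (these 3 chains, the pentraxin Apcs at -0.98 and ceruloplasmin, Cp, at -0.42) and 3 higher (Serpina3n, Orm2 and Orm3), with a median of 0.0094. The lower count was 3 without treated replicate 4 or 5 or chow replicate 9, and without chow replicate 7 the counts were 5 higher and 7 lower. Apcs lost its call in those runs without treated replicate 4 or 5 or chow replicate 9 (adjusted p = 0.0724, 0.0997 and 0.0541), Cp in the same runs (0.12, 0.0762 and 0.112) and without chow replicate 8 (0.0776), and Orm3 without treated replicate 6 or chow replicate 9 (0.121 and 0.0904). Cp lost its call also with library totals (0.063) or the compared groups alone (0.0725). Serpina3n, a protease inhibitor, had 250.1, 243 and 275 CPM in chow and 564, 498 and 676 in treated livers (1.18 ± 0.13), and the orosomucoid gene Orm2 had 4.12, 5.18 and 5.02 and 13.4, 8.91 and 18.7 (1.52 ± 0.28). Of 17 general hepatocyte markers, 7 were lower and 0 higher (median -0.37), and 4 were lower without treated replicate 5 or chow replicate 8. Albumin, Alb, had 56179.5, 62075 and 62845 CPM in chow, 26579.5, 30523 and 31323 in STAM and 45066, 45704 and 46411 treated, in 3 ranges that did not overlap (-0.40 ± 0.10, adjusted p = 0.0332). That call was lost without treated replicate 4, 5 or 6 (adjusted p = 0.109, 0.102 and 0.0683), chow replicate 8 or 9 (0.118 and 0.12) or STAM replicate 2 (0.0506), and with the compared groups alone (0.0746).

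Several other genes stayed high. Por, the reductase that feeds electrons to P450 enzymes, had 168, 183 and 159 CPM in chow, 321, 369 and 392 in STAM and 426, 494 and 383 treated (1.35 ± 0.13, edgeR adjusted p = 3.08e-06). Osbpl3, an oxysterol-binding protein relative, had 2.57, 2.17 and 0.443 CPM in chow, 17.0, 19.6 and 15.3 in STAM and 10.4, 11.1 and 11.03 treated (2.58 ± 0.37). The imprinted fetal RNA H19 had 1.34, 0 and 0 CPM in chow and 20.1, 11.8 and 16.6 under Atglistatin, and its 13 chow counts were all from replicate 7 (4.96 ± 0.62, adjusted p = 7.36e-05). It was the 1 member of 12 fetal and tumour-associated genes that was called, and 6 members were called without chow replicate 7. Without that library H19 had 0 chow counts, so its log2 fold change of 10.14 there is no measured ratio. With few chow reads, H19 and Osbpl3 entered the test through the groups in which they are high, so their calls are descriptions. The interferon-inducible gene Ifi27 had 202, 176 and 181 CPM in chow and 309, 324 and 348 treated (0.81 ± 0.11), and the chemokine Ccl9 stayed low (90.1, 63.4 and 70.9 and 42.7, 38.9 and 37.7 CPM, -0.91 ± 0.16). These were single genes of their lists. Of 27 tested interferon genes 2 were higher and 0 lower (median 0.10), and 1 was higher without treated replicate 4, 5 or 6. Of 16 cytokine and chemokine genes 1 was lower and 0 higher.

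Sex-biased genes were the third block, and here treated livers lay further from chow than STAM livers did. All 20 tested male-biased genes were lower than chow under Atglistatin (median log2 fold change -1.66), 8 were lower in STAM (median -0.40), and 17 were lower under Atglistatin than in STAM (0.742% of all tested genes). The count stayed within 1.5 times in all 14 alternatives, the one without chow replicate 7 included. The sex-biased lists, like the others, were drawn up with earlier results of these data known, so their direction is not independent evidence. Hsd3b5, a male-specific steroid dehydrogenase (chromosome 3, 98618634 to 98630252, minus strand), had 130.4, 294 and 264 CPM in chow, 46.9, 34.6 and 29.3 in STAM and 10.3, 0.933 and 3.14 under Atglistatin. The groups formed 3 separate steps, -5.56 ± 0.48 from chow (edgeR adjusted p = 9.70e-07) and -2.93 ± 0.46 from STAM (adjusted p = 0.00117). Treated replicate 4 held most of the residual signal, and without it the difference from chow was -6.82. Stepwise loss also held for the antitrypsin gene Serpina1e, at 7120.2, 8449 and 10453 CPM in chow, 1544, 2197 and 1969 in STAM and 435, 196 and 628 treated (-4.37 ± 0.31), and for Elovl3, at 186, 287 and 305, 90.9, 62.6 and 104 and 17.0, 25.2 and 39.7 CPM (-3.25 ± 0.27). Slco1a1, a male-biased organic anion carrier, had 316, 555 and 659 CPM in chow, 249.6, 254 and 189.9 in STAM and 84.2, 100.3 and 122 treated (-2.32 ± 0.22). Selenbp2, a selenium-binding protein, had 531, 480.0 and 577, 284, 399 and 277 and 56.1, 43.1 and 55.2 CPM (-3.36 ± 0.17, adjusted p = 1.77e-09), though its drop in STAM lost the call without STAM replicate 1 or 3 (adjusted p = 0.0694 and 0.0551).

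Other male-biased genes were lower under Atglistatin and not in STAM. Cyp7b1, an oxysterol hydroxylase of the alternative bile acid pathway (chromosome 3, 18071950 to 18243338, minus strand), had 142, 217 and 225 CPM in chow, 179, 176 and 145 in STAM and 41.4, 36.1 and 52.5 under Atglistatin. No treated liver came near the lowest chow or STAM liver (-2.17 ± 0.18 from chow, edgeR adjusted p = 6.50e-07; -1.94 ± 0.18 from STAM). Cyp4a12a, a male-specific arachidonic acid hydroxylase, had 411, 513 and 665, 472, 501 and 486 and 149, 109 and 99.9997 CPM (-2.15 ± 0.17 from chow), with the caveat that its near-copy Cyp4a12b (-2.21 ± 0.17) may share its reads. For Cyp4a12b, STAM differed from chow with DESeq2 (adjusted p = 0.0193) and, in edgeR, with library totals (0.0138), no filter (0.00221) or the compared groups alone (0.0379). The same held without treated replicate 4 or 6 or chow replicate 9 (0.0314, 0.046 and 0.0463). In these runs treated livers differed from STAM with a smaller adjusted p than from chow (2.36e-53 and 8.59e-33 with DESeq2). That order places STAM above chow, so the gene was not low in both STAM groups. Complement genes of the membrane attack complex were among these too: C6 went from 238, 242 and 302 CPM in chow and 218, 234 and 172 in STAM to 66.6, 83.2 and 85.2, and C8a from 756, 806 and 931 and 652, 769.6 and 656 to 400.0, 308 and 445 (-1.73 ± 0.15 and -1.11 ± 0.14 from chow).

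Of 22 major urinary protein genes, which carry pheromones in male urine, 13 were tested and 10 were lower than chow, 0 higher (median -2.60). In STAM 2 were lower (Mup12 and Mup16) and 1 higher (Mup9), of which Mup16 lost its call without STAM replicate 1 or 3 or chow replicate 9 (adjusted p = 0.0566, 0.0526 and 0.0531), and 11 were lower under Atglistatin than in STAM. Mup17 had 804, 1060.0 and 1531 CPM in chow, 997, 1154 and 1086 in STAM and 177, 161 and 196 under Atglistatin (-2.67 ± 0.18 from chow, edgeR adjusted p = 7.62e-08, and -2.60 ± 0.18 from STAM). Chow and STAM values overlapped and every treated value was far below. Mup12 dropped in steps from 17.8, 30.3 and 34.1 CPM in chow through 5.86, 5.55 and 8.77 to 1.003, 0.518 and 0.649 (-5.21 ± 0.38). Mup9 took the opposite side of chow in the STAM groups, with 83.6, 33.6 and 121 CPM in chow, 272, 352 and 325 in STAM and 24.1, 21.1 and 26.3 treated (-1.73 ± 0.29 and 2.00 ± 0.28 from chow). These genes are nearly identical copies in 1 cluster, so single members are uncertain.

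Female-biased genes moved the other way. Of 20 listed, 12 were tested and 8 were higher than chow, 0 lower (median 2.94), against 5 in STAM, and 7 were higher under Atglistatin than in STAM. The members with no or few reads in chow entered the test through the groups in which they are high, so this count is a description. Cyp2b9, a female-predominant P450, had 0, 0.964 and 1.03 CPM in chow, 26.0, 13.5 and 34.4 in STAM and 72.8, 63.6 and 64.1 under Atglistatin (6.74 ± 0.46 from chow, edgeR adjusted p = 7.62e-08). Its treated values exceeded every STAM value, with a log2 fold change of 1.44 ± 0.30 that lost its call with DESeq2 (adjusted p = 0.309), without treated replicate 4 or 5 (0.0941 and 0.0716) and without STAM replicate 1 or 2 (0.0844 and 0.0914). The sulfotransferase Sult2a7 had 0.103, 0.964 and 0.591 CPM in chow, 16.03, 13.2 and 11.7 in STAM and 45.0, 39.2 and 49.7 treated (6.36 ± 0.36, adjusted p = 1.02e-08). Cyp2a4, a steroid hydroxylase, had 31.1, 0 and 0.296 CPM in chow and 549.6, 462 and 332 under Atglistatin, and chow replicate 7 held nearly all chow reads (5.33 ± 0.79). Without that library the log2 fold change was 11.57, which rests on chow levels of 0 and 0.296 CPM, so its size is uncertain. Cyp2b13 had 0 counts in chow, 61 in STAM and 122 under Atglistatin, 34.9-fold higher than chow against a floor of 3 counts over the group. Without a floor, the 95% exact lower limit of its ratio to chow was 28.0, counting error only.

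**Figure D4:**
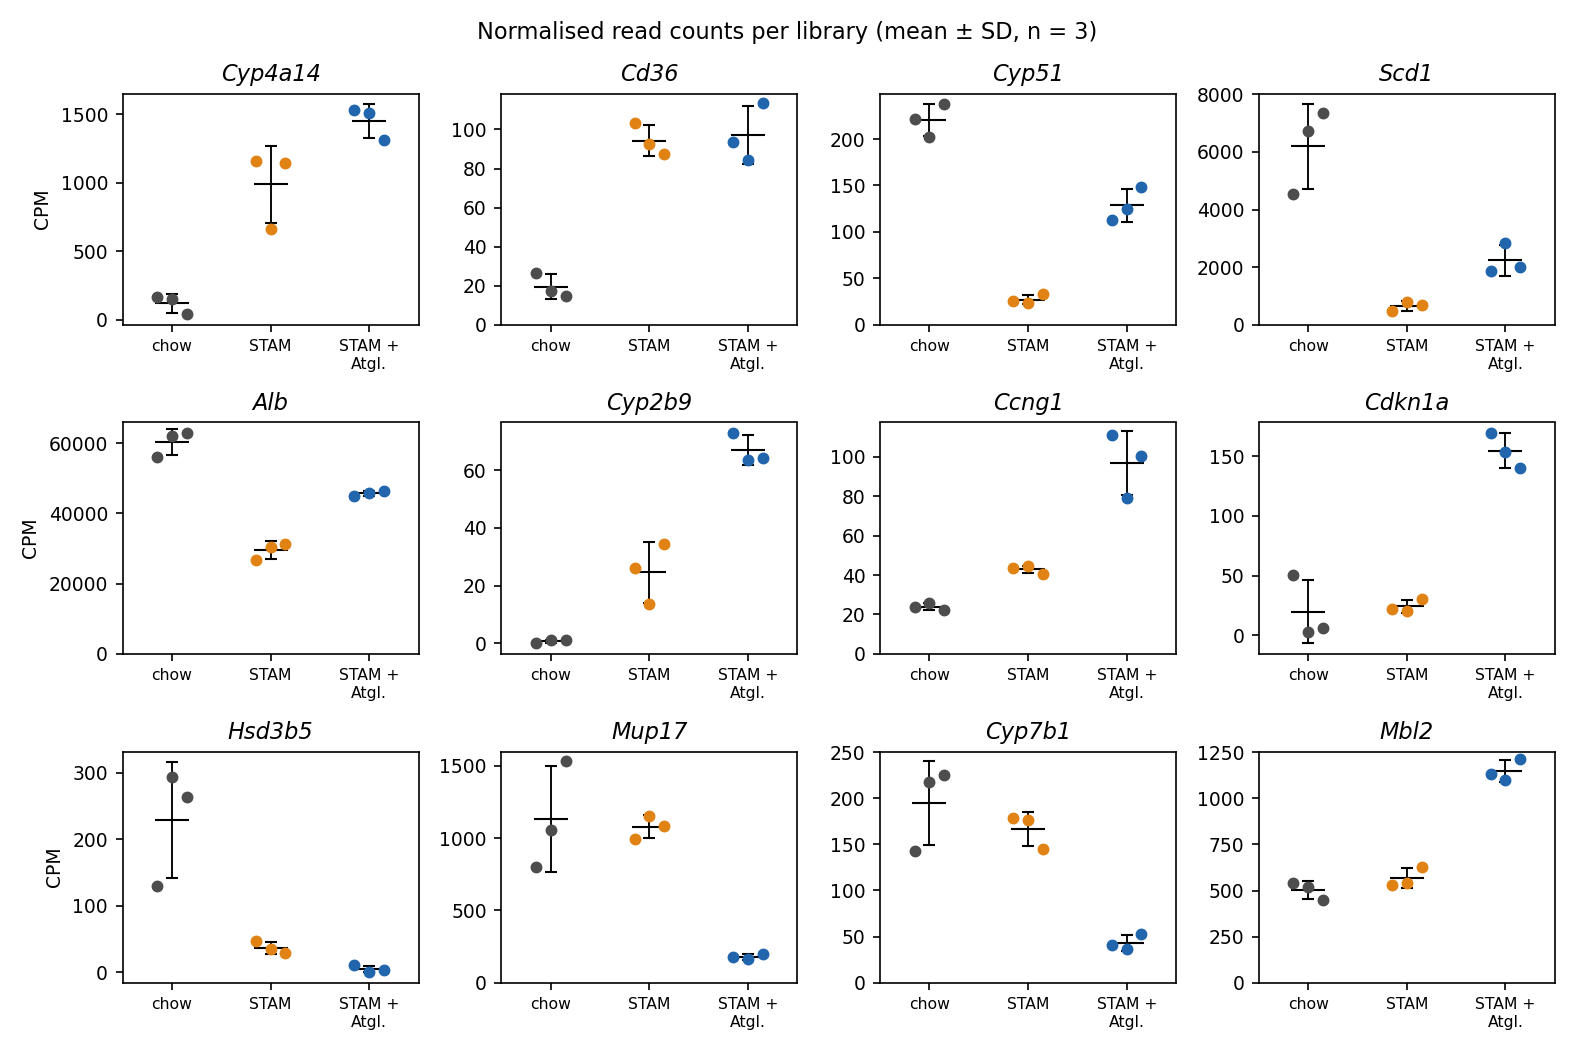
CPM of 12 genes in each library (points), with mean and SD of 3 libraries (bars), for chow, STAM and STAM + Atglistatin. Cyp4a14 and Cd36 stay above chow, Cyp51, Scd1 and Alb lie between the other groups, Hsd3b5 and Cyp2b9 go further in the direction of STAM, and Mup17, Cyp7b1 and Mbl2 leave a level that chow and STAM share. The Cdkn1a panel shows chow replicate 7 at 50.4 above its group.

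What rose newly included detoxifying enzymes. Cbr1, a carbonyl reductase, had 115, 85.2 and 86.0 CPM in chow, 97.0, 106 and 118 in STAM and 330.3, 309.8 and 258 under Atglistatin (1.65 ± 0.15 from chow, edgeR adjusted p = 1.25e-06, and 1.48 ± 0.15 from STAM). Chow and STAM overlapped while the lowest treated liver was above both. Cyp2c38, a P450 of the Cyp2c cluster, had 18.3, 30.9 and 16.7, 29.3, 25.2 and 40.6 and 95.9, 102 and 121 CPM in the same order of groups (2.27 ± 0.22), and without chow replicate 8 the STAM livers were called higher too (adjusted p = 0.0355). Of 25 glutathione transferases and NRF2 targets, 7 were higher and 2 lower than chow (median 0.32), 2 higher and 4 lower in STAM, and 12 were higher under Atglistatin than in STAM. The higher count was 4 without treated replicate 4 or chow replicate 9, and 10 without chow replicate 7 or with no low-count filter. The 2 lower genes were Gstp1 and Gstm6 (-1.29 and -0.82), and Gstp1 lost its call without treated replicate 4 or 6 (adjusted p = 0.0863 and 0.0697) or chow replicate 8 or 9 (0.0598 and 0.0619), which left 1. Nqo1, a quinone reductase and standard NRF2 target, had 7.41, 2.65 and 2.36 CPM in chow, 5.31, 4.96 and 8.17 in STAM and 14.8, 18.9 and 19.5 treated (2.06 ± 0.37 from chow, adjusted p = 0.00274, and 2.81 without chow replicate 7, its highest chow library, when STAM was called higher than chow as well, adjusted p = 0.0388). Its difference from STAM (1.53 ± 0.36, adjusted p = 0.0349) was not called without treated replicate 4, 5 or 6 (adjusted p = 0.076, 0.15 and 0.12) or STAM replicate 1 or 2 (0.202 and 0.197).

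Carboxylesterases, which cut ester and triglyceride substrates, split into 3 higher (Ces2e, Ces1b and Ces1g) and 3 lower (Ces3b, Ces3a and Ces2a) of 12, with a median of -0.0014. Ces2e had 204, 249 and 259 CPM in chow, 291, 286 and 288 in STAM and 473, 453 and 508 treated (1.01 ± 0.12, edgeR adjusted p = 3.70e-05), and Ces1b had 45.9, 37.7 and 30.3, 39.3, 46.2 and 47.8 and 88.2, 73.4 and 96.8 (1.18 ± 0.17). Ces3a went the other way, from 1775, 2504 and 2424 CPM in chow and 2001, 2086 and 2551 in STAM to 1354, 1331 and 1318 (-0.74 ± 0.13). These are neighbouring copies whose shared reads could be split between them. Ces2a lost its call without treated replicate 5 or 6 (adjusted p = 0.0602 and 0.11) or chow replicate 8 or 9 (0.174 and 0.054), and with the compared groups alone (0.0697). Among 25 Cyp2 and Cyp3 genes and their partners, 7 were higher and 4 lower (median 0.13). The lower count was 2 without treated replicate 6 or chow replicate 8 or 9, and 5 without chow replicate 7. Cyp2a5, a coumarin hydroxylase, rose from 286, 325 and 225 CPM in chow through 578, 499 and 582 in STAM to 1365, 1307 and 1198 (2.21 ± 0.14). Cyp1a2, a P450 that oxidises aryl amines, was the gene that crossed chow upward: 826, 1425 and 1262 CPM in chow, 637, 652 and 664 in STAM and 2519, 2012 and 1904 treated (-0.85 ± 0.16 and 0.87 ± 0.16 from chow, adjusted p = 0.00419 and 0.00332). Mbl2, the mannose-binding lectin that starts complement, was at a shared level in chow and STAM and higher under Atglistatin, with 538, 522 and 447 CPM in chow, 531, 540.1 and 628 in STAM and 1132, 1099 and 1215 in treated livers (1.19 ± 0.12 from chow, 1.02 ± 0.12 from STAM).

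Some targets of p53, a transcription factor that responds to DNA damage, were higher than chow. Of 15 tested, 7 were higher than chow and 0 lower (median 0.60), 3 were higher in STAM, and 4 were higher under Atglistatin than in STAM. The 7 were Phlda3, Ccng1, Mdm2, Cdkn1a, Gdf15, Eda2r and Zmat3. Gdf15 lost its call against chow with DESeq2 (adjusted p = 0.0709) and without treated replicate 4 or 5 (0.0674 and 0.0913). The STAM calls were Ccng1, Gdf15 and Zmat3. Those of Gdf15 and Zmat3 were lost without STAM replicate 1 (adjusted p = 0.0507 and 0.102), 2 (0.125 and 0.101) or 3 (0.0997 and 0.0689) and without chow replicate 8 (0.0649 and 0.137), that of Gdf15 also with DESeq2 (0.122) and without treated replicate 5 (0.0516), and that of Zmat3 also without chow replicate 9 (0.0966). With the compared groups alone the STAM calls of Gdf15 and Zmat3 were lost too (0.0696 and 0.0585). Phlda3, which restrains AKT, had 0.823, 0.603 and 0.148 CPM in chow, 1.33, 1.06 and 1.32 in STAM and 12.2, 13.3 and 8.22 under Atglistatin (4.32 ± 0.51 from chow, edgeR adjusted p = 3.70e-05, and 3.17 ± 0.46 from STAM). With so few chow reads it entered the test through the group in which it is high, so its call and its place in the count are descriptions. Cyclin G1, Ccng1, rose in steps from 23.6, 25.8 and 22.2 CPM through 43.5, 44.4 and 40.7 in STAM to 111, 79.3 and 100.3 (2.02 ± 0.15 from chow and 1.18 ± 0.15 from STAM). Mdm2, the ligase that destroys p53, had 44.1, 26.0 and 20.1 CPM in chow, 41.6, 40.1 and 37.1 in STAM and 60.6, 80.3 and 73.0 treated (1.24 ± 0.22, adjusted p = 0.00208). Cdkn1a, the cell cycle inhibitor p21, had 50.4, 2.89 and 6.35 CPM in chow, 22.1, 20.4 and 30.0 in STAM and 169, 154 and 139.9 treated (2.92 ± 0.57, adjusted p = 0.00493). Chow replicate 7 lay above every STAM value of Cdkn1a and the other chow libraries below: without replicate 7 the difference from chow was 5.09, and STAM was also called higher (adjusted p = 2.15e-06). The difference of Cdkn1a from STAM (2.67 ± 0.56, adjusted p = 0.015) was lost with DESeq2 (0.13), without treated replicate 4 or 5 (0.0741 and 0.0714) and without STAM replicate 1, 2 or 3 (0.121, 0.111 and 0.0508). The proliferation list, with 0 of 24 members called, is given with the cell markers.

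Bile acid genes changed in part. Of 15 synthesis genes 2 were lower and 0 higher (median -0.12), Cyp7b1 and Cyp2c70, and 4 were lower without chow replicate 7. Cyp2c70, which makes muricholic acids in mice, had 462, 659 and 548 CPM in chow, 125, 177 and 145 in STAM and 336, 246 and 246 treated (-1.01 ± 0.16, edgeR adjusted p = 0.00107), and its rise over STAM lost the call without treated replicate 4 or STAM replicate 1 (adjusted p = 0.0509 and 0.0615). Cyp7a1, the rate-limiting enzyme of the classical route, had 120.2, 162 and 163 CPM in chow and 118, 142 and 266 treated, with the chow range inside the treated one (0.24 ± 0.29, adjusted p = 0.793). Cyp8b1, the cholic acid branch enzyme, differed from chow by -0.11 ± 0.18 and the bile acid receptor gene Nr1h4 by 0.11 ± 0.17, neither called. Of 14 biliary and sinusoidal transporters, 4 were higher (Abcb4, Slco1a4, Abcb1a and Abcc4) and 2 lower (Slco1a1 and Abcb11), and 2 were higher and 1 lower without treated replicate 5 or chow replicate 8 or 9, and 5 lower without chow replicate 7. The export pump Abcb11 was lower (323, 379.8 and 382 CPM in chow, 174, 194 and 164 in STAM, 269, 235 and 222 treated, -0.58 ± 0.12), a call lost without treated replicate 5 or chow replicate 8 or 9 (adjusted p = 0.057, 0.0528 and 0.0554). The phospholipid flippase Abcb4 stayed higher (527, 446 and 486 and 689, 869 and 743 CPM, 0.66 ± 0.12), and the uptake carrier Slc10a1 was called lower only when chow replicate 7 was left out (-0.33 ± 0.19 with it, -0.59 and adjusted p = 0.00546 without).

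Pnpla2, which encodes the inhibited lipase, and its partners were not called. It had 61.1, 46.0 and 48.2 CPM in chow and 62.4, 92.0 and 54.8 treated, in overlapping ranges (0.43 ± 0.18, edgeR adjusted p = 0.267). An inhibitor acts on the enzyme, so this transcript is no check of the treatment. Its activator Abhd5 and inhibitor G0s2 differed by 0.27 ± 0.16 and 0.25 ± 0.36, neither called. Of 18 lipolysis and lipid droplet genes, 3 were higher (Mgll, Cidea and Fitm2) and 0 lower (median 0.35), with 1 higher without treated replicate 4, 5 or 6 or chow replicate 8, 0 without chow replicate 9 or STAM replicate 1, and 6 without chow replicate 7. Cidea, a lipid droplet fusion protein, had 1 count in chow, 238 in STAM and 27 under Atglistatin, a ratio to chow of 23.2 (95% exact interval 3.82 to 949, counting error only). Its edgeR call was lost without treated replicate 5 or 6 (adjusted p = 0.118 and 0.0822), chow replicate 8 or 9 (0.118 and 0.104) or STAM replicate 1 or 3 (0.0582 and 0.0552). Adipsin, Cfd, overlapped chow again, with 5.25, 2.53 and 5.76 CPM in chow, 145, 115 and 188 in STAM and 4.72, 4.14 and 7.46 treated. The hormone gene Fgf21 had 13.8, 0 and 0.148 CPM in chow and 2.61, 2.49 and 4.97 treated, a difference that turned from -0.50 to 5.36 without chow replicate 7 (adjusted p = 0.0128).

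Markers of scarring and of most other cells were not called in the main comparison. In 13 lists with 162 tested members (fibrosis, proliferation, Kupffer cells, recruited macrophages, lymphocytes, neutrophils, antigen-presenting cells, sinusoidal endothelium, stellate cells, cholangiocytes, adipocytes, and nuclear and mitochondrial respiratory chain genes), edgeR and DESeq2 called 0, and 16 were higher and 12 lower at an unadjusted p under 0.05. Without chow replicate 7 edgeR called 9 higher and 3 lower in these lists, and without chow replicate 8 it called 2 lower. With no low-count filter it called 6 higher and 6 lower, and 3 of the lower ones were fibrosis genes. Collagen Col1a1 had 70.5, 13.7 and 23.3 CPM in chow and 13.2, 20.0 and 16.4 treated, with replicate 7 highest (-1.13 ± 0.42, adjusted p = 0.194, and -0.16 without it). In edgeR it was called lower without chow replicate 8 (-1.51, adjusted p = 0.0325) and with no low-count filter (-1.13, adjusted p = 2.27e-06). The sum of fibrosis genes was 1597 to 2127 CPM in chow and 1553 to 1763 treated, that of Kupffer markers 453 to 601 and 494 to 672, and that of stellate markers 202 to 222 and 180.0 to 197. Among the lists with a call, 1 of 5 tested erythrocyte markers was lower, the heme synthesis gene Alas2 (79.1, 112 and 81.6 CPM in chow and 38.1, 50.9 and 20.0 treated, -1.32 ± 0.24, adjusted p = 0.00294), and the sum of that list was 690.5 to 1001 CPM in chow and 462 to 789.5 treated. Of 10 pancreatic acinar markers the 1 that was tested, the elastase gene Cela1, was lower as well (27.7, 48.8 and 46.2 and 18.8, 16.5 and 22.1 CPM, -1.10 ± 0.22, adjusted p = 0.00583). The part of these cells in the results above was not tested. Tnf had 1 count in chow and 0 under Atglistatin and was not tested, and Ccl2 had 4.94, 1.33 and 4.58 and 2.61, 1.55 and 0.216 CPM.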

How the data were processed

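Per the labels, RNA of the left liver lobe was sequenced with a 3' kit. The values used are the raw counts of reads per gene that the authors deposited, made with STAR on GRCm38 per the submitters' processing notes. Versions, annotation, strand and multi-mapping rules are not given. The authors' own comparison columns were not used. Of 55401 genes, 20630 had a count; 7 rRNA rows were left out. R 4.3.3 and edgeR 4.0.16 gave TMM scaling, filterByExpr (12660 genes) and 1 quasi-likelihood fit of all 9 libraries by group, which share 1 spread. CPM values use TMM-scaled totals, and a call is a Benjamini-Hochberg adjusted p under 0.05 over all tested genes. The members and the 51 gene lists were chosen with earlier results of these data known.

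Named genes were, by rule, the 8 largest non-overlapping changes each way with a mean log2 CPM of at least 3 (so their separation is no support), the 5 stayed or newly altered genes each way with the smallest p at that level, 3 members of each list called in 1 direction, and a fixed set. Picked after their values were seen were Ddx3y, Xist, Acot1, Acot4, Cpt1a, Acadl, Elovl6, Acacb, Hmgcs1, C6, C8a, Ccl9, Apcs, Cp, Cyp2b13, Mup9, Cdkn1a, Mdm2, Igfbp2 and genes named only to complete a count. DESeq2 1.42.0, other scalings, no filter, the compared groups alone and leaving out each library were 14 alternatives. Positions are from GENCODE M21 (55141 identifiers matched). Some of the genes selected are not reported here.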

Additional observations from a re-analysis of the deposited data

How the results depend on the processing

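Leaving out 1 library each gave 309 to 757 genes called against chow, 164 to 376 higher and 132 to 381 lower, 147 to 408 that stayed altered and 33 to 97 newly altered. The extremes came from single libraries: without chow replicate 7 the higher and lower counts and those that stayed (408) were largest, and without treated replicate 5 the lower (132) and newly altered (33) were smallest. With no low-count filter 379 were lower, 376 stayed altered and 133 were newly altered. With library totals, size factors of DESeq2, the compared groups alone or DESeq2 itself, total, stayed and new counts kept within 1.5 times. Of the 236 and 74 genes, 209 and 58 were in the same class without chow replicate 7.

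Among the named genes that were not called, log2 fold changes crossed 0 when 1 library was left out: Cfd -0.0191 to 0.45 (from 0.27), Cyp7a1 -0.19 to 0.46 (from 0.24), Cyp8b1 -0.23 to 0.0768 (from -0.11), Fgf21 -1.08 to 5.36 (from -0.50), G0s2 -0.18 to 0.61 (from 0.25), Nr0b2 -0.57 to 0.0206 (from -0.21), Nr1h4 -0.0269 to 0.29 (from 0.11) and Ppara -0.14 to 0.26 (from 0.10). No paired analysis was possible because the groups share no replicate numbers (7 to 9, 4 to 6 and 1 to 3). The 3 libraries a group and the depth of 7409090 to 9911855 counts limit low genes most: Cidea, Cyp2b13 and H19 rest on few chow counts. Cyp2a4 and Fgf21 do so once chow replicate 7 is left out.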

Other observations

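Other gene groups changed in smaller numbers. Of 21 endoplasmic reticulum folding genes, 5 were lower in STAM + Atglistatin than in chow and 0 higher (median log2 fold change -0.48; 1.97% of all tested genes were lower): Sdf2l1, Manf, Hspa5, Pdia4 and Hsp90b1. Sdf2l1, a co-factor of the chaperone BiP, had 57.3, 50.4 and 57.6 CPM in chow, 44.8, 42.9 and 27.4 in STAM and 28.1, 22.9 and 26.4 treated (-1.09 ± 0.18, edgeR adjusted p = 0.00137). The number lower was 3 without treated replicate 4, chow replicate 8 or STAM replicate 2, 1 without treated replicate 5 and 8 without chow replicate 7. In the insulin and IGF list of 19 genes, 3 were lower (Igfals, Ghr at -0.63 and Igf1 at -0.48) and 1 higher (Igfbp2), with a median of -0.36. Igfals, which holds IGF1 in the circulation, had 119, 158 and 117 CPM in chow, 77.6, 78.3 and 116 in STAM and 79.9, 64.7 and 63.0 treated (-0.93 ± 0.17, adjusted p = 0.0034). Ghr and Igf1 lost their calls without treated replicate 4 (adjusted p = 0.158 and 0.105) or 5 (0.113 and 0.057) and without chow replicate 8 (0.152 and 0.102) or 9 (0.143 and 0.0879), and Igfbp2 (0.55) was not called without treated replicate 4 or 5 (adjusted p = 0.174 and 0.135), chow replicate 7, 8 or 9 (0.0602, 0.0732 and 0.0904) or STAM replicate 1 (0.0584). With the compared groups alone, Ghr and Igfbp2 were not called either (adjusted p = 0.07 and 0.0509).

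Pltp, which moves phospholipid between lipoproteins, stayed low (30.7, 71.2 and 53.04 CPM in chow, 20.1, 16.4 and 11.7 in STAM, 14.95, 26.1 and 16.1 treated, -1.44 ± 0.28, edgeR adjusted p = 0.00523). The fructose enzyme Tkfc was higher than chow under Atglistatin (257, 361 and 332 and 554, 506 and 511 CPM, 0.73 ± 0.14), and it was not called in STAM or between the STAM groups. Of 17 heat shock and immediate early genes, 4 were lower (Hspa1b, Junb, Egr1 and Zfp36), 0 without treated replicate 4, 5 or 6, and 2 without chow replicate 8 or STAM replicate 1. In that list 1 was lower with library totals and 8 with no low-count filter. Of 30 urea cycle and amino acid genes 6 were lower, among them the one-carbon enzymes Bhmt and Gnmt, and 1 higher (Mat1a), against 2 lower and 2 higher with library totals. The number lower was 0 without treated replicate 5 or chow replicate 8, 2 without chow replicate 9 or STAM replicate 1 or 2, and 3 without treated replicate 4 or 6 or STAM replicate 3.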
